A study of Rattus norvegicus with 8 samples.

Results

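The genes described here are 7 genes of cholesterol synthesis and its control, measured in cultured islet cells of neonatal rats. They were taken by gene symbol from 8 named genes (Hmgcs1, Sqle, Idi1, Fdps, Fdft1, Lss, Insig1 and Srebf2), of which 7 are among the 10692 rows of the deposited table. Lss was not analysed here. Of these 7 genes, 7 passed the filter on low values. The cells came from Sprague Dawley rats at postnatal day 10, were dissociated from pancreatic islets, and were transfected by lipofection with locked nucleic acid (LNA) oligonucleotides. For the 4 control libraries the cells received 60 pmol of a scrambled control LNA. For the 4 inhibitor libraries they received 20 pmol each of LNA inhibitors against the tiRNA-5 of HisGTG, GluCTC and GluTTC, 60 pmol in total. tiRNA-5 are the 5-prime fragments of cleaved tRNAs, and the comparison asks which mRNAs change when they are blocked. Values are RPKM (reads scaled to gene length and library size), so levels of different genes can be set side by side. The labels do not say whether libraries came from separate animals, litters or cultures, so every p-value covers only the spread between these libraries.

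Cells make cholesterol from acetyl-CoA through mevalonate and the isoprenoids to squalene, which is oxidised and closed into the sterol rings. The pathway is governed by SREBP2, a transcription factor held in the endoplasmic reticulum by the sensor SCAP and the INSIG proteins while sterols are plentiful. When sterols fall, SREBP2 is carried to the Golgi, cut free and moved to the nucleus, where it raises the genes of synthesis and uptake together. In beta cells, membrane cholesterol is known to bear on insulin granules and on exocytosis. SREBP factors bind weakly alone and act beside other factors, among them NF-Y, which recognises the CCAAT box, and Sp1, which recognises GC boxes.

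Promoter sequences are given for the 5 of the 7 genes that the RefSeq table of promoters held. It held none for Sqle and Fdft1, which were therefore not searched. Each of the 5 holds a CCAAT box, and the other elements were found in some of them only. The sequences are RefSeq's, in build GRCr8, which is not the authors' build, and run 5′ to 3′ on the strand of the gene. Each holds 100 bases around the CCAAT match that lies nearest the start of the gene. Capitals mark matches to any of the 6 motifs searched on both strands, so ATTGG is a CCAAT match on the opposite strand.
Hmgcs1, chr2:53382131-53382230, plus strand: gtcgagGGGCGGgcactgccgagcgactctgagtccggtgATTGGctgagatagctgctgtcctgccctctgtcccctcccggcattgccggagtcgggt
Idi1, chr17:66547500-66547599, minus strand: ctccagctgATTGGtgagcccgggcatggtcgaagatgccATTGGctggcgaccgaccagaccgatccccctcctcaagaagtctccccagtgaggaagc
Fdps, chr2:176804842-176804941, minus strand: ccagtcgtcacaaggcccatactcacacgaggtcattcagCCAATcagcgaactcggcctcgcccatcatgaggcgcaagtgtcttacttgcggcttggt
Insig1, chr4:8057903-8058002, minus strand: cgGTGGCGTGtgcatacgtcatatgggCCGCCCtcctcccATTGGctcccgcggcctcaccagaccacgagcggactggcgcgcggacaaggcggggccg
Srebf2, chr7:115543138-115543237, plus strand: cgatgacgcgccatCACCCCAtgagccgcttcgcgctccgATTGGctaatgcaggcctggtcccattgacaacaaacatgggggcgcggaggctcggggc

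The window searched ran from 250 bases before to 50 bases after the start of each gene. CCAAT was found in 5 of the 5 promoters, against 37.5% of all 33469 promoters in the RefSeq table and 37.3% of the 9038 promoters whose genes are in the deposited table. Hmgcs1, Idi1 and Fdps held 2 matches each, and Insig1 and Srebf2 held 1. The printed CCAAT matches begin at base -133 of Hmgcs1, -35 of Idi1, -85 of Fdps, -193 of Insig1 and -129 of Srebf2. The GC box GGGCGG was in 4 of the 5, against 63.7% of the promoters of listed genes. The E-box CACGTG was in Insig1 alone of the 5 (9.05% of promoters of listed genes). Of shortened forms of the sterol regulatory element, CACCCCA was in Srebf2 alone (6.19%), CACNCCAC in Insig1 alone (5.57%) and TCACNCCAC in 0 of the 5 (1.05%). CACNCCAC and TCACNCCAC share their last letters, so a match to the longer form is also one to the shorter. Among the other sterol enzymes, CCAAT was in 9 of 13 promoters. A match describes these letters only, and the data here do not measure binding.

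Reads in the listed genes numbered between 16035607 and 19049788 per library, recovered as whole numbers from the steps of the RPKM values. Of 9 beta-cell markers fixed to check the labelled cell type, 8 were measured, and they summed to between 202482 and 255165 RPKM in control and between 158948 and 254760 RPKM in inhibitor libraries. In bulk libraries, fewer cells of a type and less RNA per cell cannot be told apart. Inhibitor 4 stood apart by its Y-linked genes Ddx3y, Eif2s3y and Kdm5d, which summed to 1.80 RPKM against 11.0 to 28.7 RPKM in the other libraries, and values without it are given below. Control 1 had the lowest sum of mesenchymal markers, 2915 RPKM against 3264 to 6347 RPKM in the others.

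None of the 7 genes differed between the groups at the threshold, an adjusted p under 0.05 by limma over 10688 genes. Over all genes 0 passed (0% of those tested) and 960 had an unadjusted p under 0.05 (8.98%; 5.52% higher and 3.46% lower), of which 0 were among the 7. These were 590 higher and 370 lower genes, and 449 and 540 with median-of-ratios scaling. Their number was 494 without control 2, 422 without inhibitor 1 and 1699 without control 1 and inhibitor 4 together. Without inhibitor 3, 3 of the 7 genes (Hmgcs1, Sqle and Idi1) had an unadjusted p under 0.05, beside 1239 of 10682 genes tested. Of the 7, 0 passed after adjustment. Inhibitor 3 was the lowest inhibitor library for these 3 genes, so leaving it out was bound to raise their fold changes. The number among the 7 was 2 without control 1, 1 without control 4, and 1 without control 1 and inhibitor 4 together. Over all genes it was then 1273, 1207 and 1699. Among the 7 it was also 1, Hmgcs1, with limma-voom on the recovered reads and with the replicate number as a block. Over all genes these 2 fits gave 994 and 1109. In each of these fits 0 genes passed after adjustment. In the main fit Hmgcs1 had an unadjusted p of 0.0515 by limma. Of the 7 genes, 6 had a higher mean in inhibitor cells, where 54.3% of all genes tested had a positive log2 fold change. These 6 genes correlated over the libraries, as given below, so their signs are not 6 independent observations. The median log2 fold change of the 7 was 0.13, beside 0.02 for all genes tested. The groups overlapped for each of the 7, and 5.31% of all genes tested had groups without overlap. Each fold change is the inhibitor mean less the control mean of log2(RPKM + 1), which understates the log2 ratio of RPKM, most for genes of low RPKM.

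The early steps of the pathway are represented by Hmgcs1, the cytosolic synthase that makes HMG-CoA from acetoacetyl-CoA. Hmgcs1 stood at 25.2, 21.9, 19.0 and 24.3 RPKM in control 1 to 4 and at 28.9, 26.5, 22.4 and 29.4 RPKM in inhibitor 1 to 4. Inhibitor 1, 2 and 4 lay above the highest control, and inhibitor 3 lay among the controls. The means were 22.6 ± 2.76 and 26.8 ± 3.17 RPKM (mean ± SD, n = 4), a ratio of 1.19. The log2 fold change was 0.24 ± 0.11 (SE), with a 95% interval from -0.002 to 0.48 and an adjusted p of 0.550 by limma. In the authors' deposited table its p-value was 0.0444 and its adjusted p-value 0.583.

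Idi1 and Fdps make the isoprenoid units: Idi1 isomerises isopentenyl diphosphate, and Fdps joins the units into farnesyl diphosphate. Idi1 stood at 31.1, 23.6, 20.0 and 29.1 RPKM in control 1 to 4 and at 33.0, 33.4, 19.5 and 35.8 RPKM in inhibitor 1 to 4. Here too inhibitor 1, 2 and 4 exceeded every control, while inhibitor 3 was the lowest of the 8 libraries. The means were 25.96 ± 5.08 and 30.4 ± 7.41 RPKM (mean ± SD, n = 4), and the log2 fold change was 0.21 ± 0.19 (SE; 95% interval -0.23 to 0.64; limma adjusted p = 0.701).

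Fdps, the most abundant of the 7, stood at 50.8, 45.1, 42.2 and 43.2 RPKM in control 1 to 4 and at 47.1, 48.5, 41.7 and 49.8 RPKM in inhibitor 1 to 4. The groups lay over one another, with the highest value in control 1 and the lowest in inhibitor 3. The means were 45.3 ± 3.84 and 46.8 ± 3.56 RPKM (mean ± SD, n = 4), and the interval of the log2 fold change, -0.13 to 0.22 around 0.04, corresponds to ratios between 0.913 and 1.17 (limma adjusted p = 0.826). RefSeq lists copies of Fdps and Idi1 named as pseudogenes, so reads of these genes may have been split or shared with such copies.

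Fdft1 and Sqle form and oxidise squalene. Fdft1, squalene synthase, takes farnesyl diphosphate out of the branches that serve other products, and stood at 24.9, 19.7, 17.7 and 20.9 RPKM in control 1 to 4 and at 24.1, 22.9, 18.5 and 24.0 RPKM in inhibitor 1 to 4. Control 1 was its highest library, and control 3 and inhibitor 3 were the lowest of their groups. Its means were 20.8 ± 3.04 and 22.4 ± 2.65 RPKM (mean ± SD, n = 4), and its log2 fold change was 0.10 ± 0.11 (SE; 95% interval -0.15 to 0.36; limma adjusted p = 0.742).

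Sqle, squalene epoxidase, is an oxygen-requiring and rate-limiting step of the pathway. It stood at 32.0, 26.6, 24.1 and 30.8 RPKM in control 1 to 4 and at 34.7, 33.0, 25.4 and 32.1 RPKM in inhibitor 1 to 4. Inhibitor 1 and 2 exceeded every control, inhibitor 4 lay barely above control 1, and inhibitor 3 lay below control 2. The means were 28.4 ± 3.67 and 31.3 ± 4.10 RPKM (mean ± SD, n = 4), and its log2 fold change was 0.13 ± 0.12 (SE; 95% interval -0.12 to 0.39; limma adjusted p = 0.679).

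Insig1 and Srebf2 are the regulators of the set. Insig1, which holds SCAP in the endoplasmic reticulum and is itself raised by SREBP2, stood at 25.2, 15.6, 16.7 and 17.1 RPKM in control 1 to 4. It stood at 22.9, 21.8, 16.9 and 23.1 RPKM in inhibitor 1 to 4. Control 1 exceeded all other libraries, and the remaining controls lay with inhibitor 3 below the other inhibitors. The means were 18.6 ± 4.42 and 21.2 ± 2.87 RPKM (mean ± SD, n = 4), and its log2 fold change was 0.19 ± 0.15 (SE; 95% interval -0.14 to 0.52; limma adjusted p = 0.656). Without control 1 the Insig1 log2 fold change was 0.34 (limma adjusted p = 0.379). Control 1 held the highest Insig1 value, so leaving it out was bound to raise the fold change.

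Srebf2, the gene of SREBP2 itself, was the 1 gene with a lower mean in inhibitor cells. It stood at 31.6, 25.9, 22.2 and 24.8 RPKM in control 1 to 4 and at 24.1, 28.3, 22.8 and 20.7 RPKM in inhibitor 1 to 4. The highest value was in control 1 and the lowest in inhibitor 4, and the other libraries were interleaved. The means were 26.1 ± 3.98 and 23.97 ± 3.19 RPKM (mean ± SD, n = 4), and its log2 fold change was -0.12 ± 0.12 (SE; 95% interval -0.38 to 0.15; limma adjusted p = 0.714). Without control 1 and inhibitor 4 together its log2 fold change was 0.04 (limma adjusted p = 0.870). These libraries held its highest and lowest values, so leaving both out was bound to raise the fold change. With single libraries left out it was between -0.20 and -0.03.

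**Figure D1:**
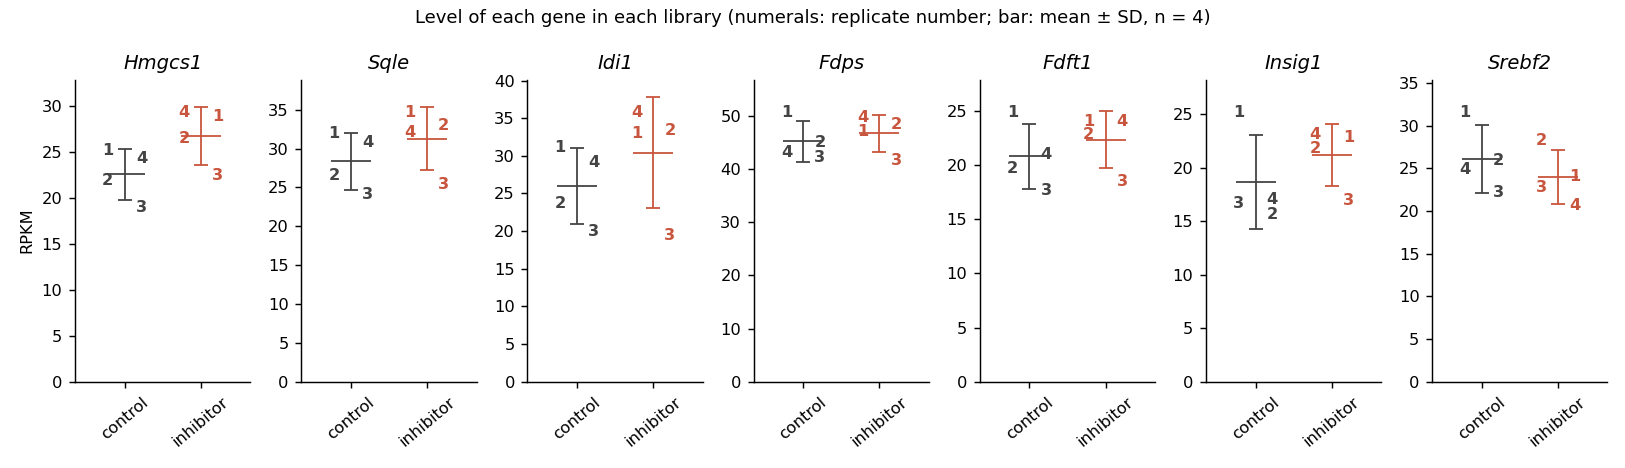
RPKM of the 7 genes in each library, with 1 panel per gene and axes from 0. Numerals give the replicate number, and bars the mean ± SD of 4 libraries. Inhibitor 3 lies low and control 1 high within their groups in most panels, and the groups overlap in each.

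By mean control level the order was Fdps, Sqle, Srebf2, Idi1, Hmgcs1, Fdft1 and Insig1, from 45.3 down to 18.6 RPKM. Fdps lay above all the others in every library, and the neighbours after it differed by less than the larger of their SDs. Without inhibitor 4 the 7 log2 fold changes kept their signs, at 0.19 for Hmgcs1, 0.12 for Sqle, 0.12 for Idi1, 0.01 for Fdps, 0.07 for Fdft1, 0.15 for Insig1 and -0.05 for Srebf2. The adjusted p by limma was then between 0.664 and 0.959.

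The spread between libraries was larger than Poisson counting error, which takes each read as an independent molecule and covers no other error of a library. The 7 genes had between 917 and 3856 reads in a library, so counting alone gives a coefficient of variation of at most 3.30% (Insig1). Between the libraries of a group it ranged from 7.62% (Fdps, inhibitor) to 24.3% (Idi1, inhibitor). The residual SD of log2(RPKM + 1) within groups was 0.34 for Idi1, 0.25 for Insig1 and between 0.17 and 0.19 for Hmgcs1, Sqle, Fdft1 and Srebf2. The median residual SD of genes of like level, within 0.5 log2 units, was 0.11. Idi1 thus stood at percentile 95.7 of genes of like level and Insig1 at 92.2, whereas Fdps, at 0.11, stood at 52.6.

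This spread was shared between the genes. Of the 7, 6 (all but Srebf2) lay above their own mean in control 1 and in inhibitor 1, 2 and 4, and below it in control 3 and inhibitor 3. The mean of the 7 genes, each taken relative to its own mean on the log2 scale, was 0.19 in control 1, -0.13 in control 2, -0.26 in control 3 and -0.03 in control 4. It was 0.15, 0.15, -0.21 and 0.14 in inhibitor 1 to 4. The ranges of the groups were therefore nearly the same, but inhibitor 1, 2 and 4 lay above control 2, 3 and 4. Control 1 lay above all inhibitor libraries, and inhibitor 3 below all controls but control 3.

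**Figure D2:**
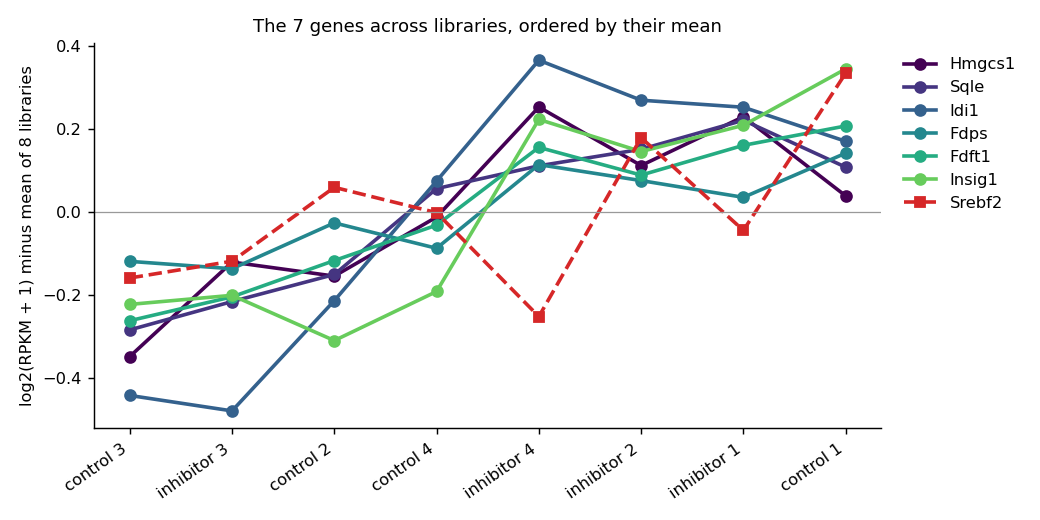
log2(RPKM + 1) of each gene minus its mean over the 8 libraries, with libraries on the horizontal axis ordered by the mean of the 7 genes. The lines of 6 genes lie below 0 in control 3 and inhibitor 3 (means of -0.26 and -0.21). They lie above 0 in inhibitor 1, 2 and 4 and control 1 (0.19 in control 1), where Hmgcs1 and Idi1 are lower in control 1 than in inhibitor 4. Srebf2, dashed, departs from these lines in inhibitor 4 and inhibitor 1. The order comes from the mean of the same genes, so a rise along the axis is partly built in.

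Over the 21 pairs of genes, 13 correlated across the 8 libraries at an adjusted p under 0.05 for Pearson's r and 10 for Spearman's rho (exact permutation over the order of libraries, two-sided, Benjamini-Hochberg over the 21 pairs). The median r was 0.81 over all pairs and 0.89 over the 15 pairs without Srebf2, which ranged from 0.74 to 0.96. Sqle and Idi1, enzymes several steps apart, had r = 0.96 and rho = 0.88 (exact permutation p = 0.0014 and 0.0072, adjusted 0.0059 and 0.030). Without the 2 libraries farthest from the Sqle median their r was 0.89. Fdft1 and Insig1 had r = 0.92 and rho = 0.90 (exact permutation p = 0.0069 and 0.0046, adjusted 0.018 and 0.030), and r = 0.99 without the 2 libraries farthest from the Fdft1 median. The correlation of Fdps with Sqle was weaker, at r = 0.77 and rho = 0.71 (exact permutation p = 0.037 and 0.058, adjusted 0.054 and 0.081). Without the 2 libraries farthest from the Sqle median its r was 0.46. Leaving out the farthest libraries narrows the range, so this fall cannot show that the correlation rested on them.

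Centring the values within each group left the median r at 0.79. The count of 13 pairs was between 9 and 13 with each single library left out. It was 5 without control 1 and inhibitor 4 and 2 without control 3 and inhibitor 3, with median r of 0.84 and 0.79 over the 6 libraries left. Levels of markers of other cell types differed between these libraries, as given below, and nothing in the labels gives a batch that could be tested.

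Srebf2 correlated with none of the other 6 genes at the threshold. Its 6 pairs had r between 0.07 (Hmgcs1) and 0.45 (Fdps), with adjusted p between 0.347 and 0.866 (exact permutation, two-sided, n = 8). With values centred within each group their r was between 0.38 (Hmgcs1) and 0.57 (Fdps), with a median of 0.55. Without inhibitor 4, 1 of its 6 pairs passed. The difference between these pairs and the other 15 was not tested.

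**Figure D3:**
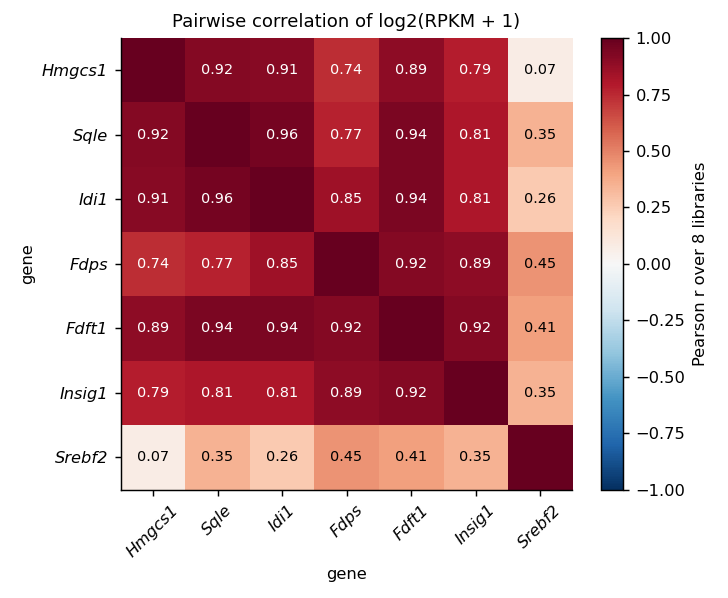
Pearson's r of log2(RPKM + 1) over the 8 libraries for each pair of the 7 genes, from -1 (blue) to 1 (red). The block of 6 genes ranges from 0.74 to 0.96, and the Srebf2 row from 0.07 to 0.45.

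Markers of other cell types varied between the same libraries. Of 12 mesenchymal markers 9 were measured, and their sum ranged from 2915 to 6347 RPKM in control and from 3264 to 5188 RPKM in inhibitor libraries, with the lowest values in control 1 and inhibitor 2. Of 7 endothelial markers 3 were measured (Flt1, Plvap and Esam), with sums of 11.5, 9.52, 9.58 and 6.56 RPKM in control 1 to 4 and 4.11, 4.17, 10.1 and 5.34 RPKM in inhibitor 1 to 4. Of 8 acinar markers 1 was measured, Ctrb1, a digestive enzyme, at 0.920 to 11.5 RPKM in control and 0.177 to 10.4 RPKM in inhibitor libraries. Inhibitor 3 was the inhibitor library with the highest endothelial sum and the highest Ctrb1. Control 1, where the mean of the 7 genes was highest, had the highest endothelial sum of the controls and 9.80 RPKM of Ctrb1. Of 7 immune markers 1 was measured, between 1.48 and 3.89 RPKM, and of 6 ductal markers 3, summing to between 170.1 and 241 RPKM. The part of these cells in the shared spread was not tested.

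Around the 7 genes, 14 other enzymes of sterol synthesis were examined, of which 0 passed the threshold in either direction, 9 lay above and 5 below 0 in log2 fold change. Their median was 0.09. By position in the pathway, the enzymes that turn mevalonate into the substrate of Idi1 had negative values. Mvk, mevalonate kinase, had -0.20 ± 0.10, Pmvk, phosphomevalonate kinase, -0.09 ± 0.08, and Mvd, mevalonate diphosphate decarboxylase, -0.30 ± 0.097 (SE; limma adjusted p = 0.566, 0.686 and 0.541).

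Mvd stood at 16.1, 14.1, 13.0 and 12.3 RPKM in control 1 to 4 and at 10.9, 12.4, 9.68 and 11.4 RPKM in inhibitor 1 to 4. Inhibitor 2 just exceeded control 4, and the other inhibitor libraries lay below all controls. It was the 1 sterol enzyme with an unadjusted p under 0.05, where 3.46% of all genes tested had such a p and a lower mean. Acat2, which makes acetoacetyl-CoA, was at 2.72 ± 0.243 and 2.55 ± 0.520 RPKM (mean ± SD, n = 4; limma adjusted p = 0.802).

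Of the enzymes after squalene, Cyp51, lanosterol demethylase, had the highest level, 44.3 ± 5.82 and 45.5 ± 5.02 RPKM, and Msmo1, the sterol C4 demethylating oxidase, 34.1 ± 5.22 and 36.4 ± 5.12 RPKM (mean ± SD, n = 4). Sc5d, lathosterol oxidase, was at 29.8 ± 4.63 and 32.4 ± 3.04 RPKM. Dhcr7, a sterol reductase late in the pathway, had a log2 fold change of -0.03 ± 0.10 (SE; limma adjusted p = 0.902).

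**Figure D4:**
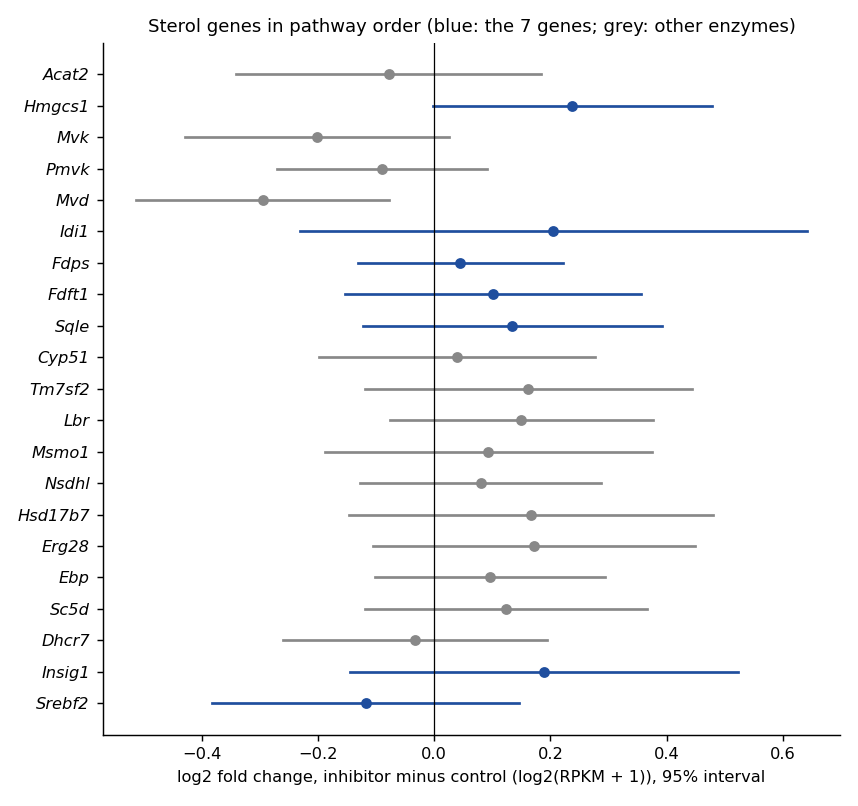
log2 fold change, inhibitor minus control on log2(RPKM + 1), with 95% intervals from limma for 21 genes in pathway order from Acat2 to Dhcr7, followed by Insig1 and Srebf2. The 7 genes are blue and the 14 other enzymes grey. The intervals include 0 for each gene other than Mvd (-0.30), which did not pass after adjustment.

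The likeness of other genes to the 7 was measured as Pearson's r over the 8 libraries with the mean of the 7 genes, as a description without a test. Among 5322 other genes of mean RPKM of at least 10, the 6 most alike were Zfr (0.97), Sc5d (0.97), Msmo1 (0.96), Necap1 (0.96), Ctnnbl1 (0.96) and Cyp51 (0.96). Of these 6, 3 are sterol enzymes, and 7 of the 14 were among the genes ranked. Zfr, an RNA-binding zinc finger protein, varied only between 40.5 and 43.9 RPKM, and Msmo1 between 28.6 and 40.9 RPKM.

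Over the 14 other sterol enzymes the median r was 0.65, and 9 of them (64.3%) had r above 0.5, against 18.4% of all genes tested, whose median r was 0.12. Lbr (0.002), Erg28 (0.07), Mvk (0.13) and Mvd (0.21) had the lowest values. Within groups, where the difference of the means is removed, Mvd had 0.75 and Mvk 0.47, and Lbr and Erg28 had -0.21 and -0.09. Among the 7, Fdft1 was closest to the mean of the other 6, at 0.99, and Srebf2 farthest, at 0.31 (0.52 within groups). Among markers of cell types, the median r was -0.81 for the 3 endothelial markers (-0.79 within groups), -0.56 for the 9 mesenchymal markers, -0.11 for the 8 beta-cell markers, -0.23 for the 8 markers of other endocrine cells and 0.24 for the 3 ductal markers. The 3 endothelial markers ranged from -0.88 to -0.35. The 1 acinar marker had -0.59 and the 1 immune marker -0.47. The part of these cells in the likeness was not tested.

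Genes that act on SREBP processing and INSIG turnover numbered 13, of which 0 passed the threshold, 7 were positive and 6 negative, with a median of 0.03. Scap, the sterol sensor that escorts SREBP2, was at 20.9 ± 1.06 RPKM under the control LNA and 18.4 ± 1.89 RPKM under the inhibitors (mean ± SD, n = 4), and its log2 fold change was -0.19 ± 0.078 (SE; limma adjusted p = 0.543). Erlin2, a protein of endoplasmic reticulum-associated degradation, was at 15.8 ± 1.29 and 17.9 ± 0.681 RPKM, and Pgrmc1, a membrane protein that binds haem, at 199 ± 11.1 and 222 ± 9.34 RPKM (mean ± SD, n = 4; limma adjusted p = 0.541 each). Tmub1, a ubiquitin-like membrane protein, was at 14.1 ± 0.875 and 12.7 ± 2.07 RPKM (limma adjusted p = 0.613).

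Uptake and transport of sterol had 10 of 13 genes measured, of which 0 passed, 2 were positive and 8 negative, with a median of -0.03. Stard3, which moves cholesterol at late endosomes, stood at 11.6, 12.8, 11.7 and 12.3 RPKM in control 1 to 4 and at 10.9, 11.0, 10.5 and 9.66 RPKM in inhibitor 1 to 4. The groups did not overlap, but the log2 fold change of -0.19 ± 0.066 (SE) had a limma adjusted p of 0.541. Vldlr, the receptor for very low density lipoprotein, also had groups without overlap, at 31.4 ± 0.565 and 34.95 ± 2.84 RPKM (mean ± SD, n = 4; limma adjusted p = 0.550). Such genes were 2 of 10 in this list, beside 5.31% of all genes tested. Scarb1, a receptor for high density lipoprotein, was at 31.5 ± 2.57 and 29.95 ± 3.13 RPKM, and Gramd1b, which carries plasma membrane cholesterol inward, at 3.46 ± 0.816 and 3.80 ± 0.552 RPKM (mean ± SD, n = 4; limma adjusted p = 0.752 and 0.749).

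Efflux and storage had 7 of 12 genes measured, with 0 past the threshold, 3 positive and 4 negative, and a median of -0.02. Apoe, the lipid carrier, was at 17.1 ± 4.16 and 14.2 ± 3.76 RPKM, and Abca1, the efflux pump raised by oxysterols, at 19.4 ± 3.17 and 20.2 ± 4.47 RPKM (mean ± SD, n = 4; limma adjusted p = 0.651 and 0.903). Nr1h2, which encodes an oxysterol receptor, had a log2 fold change of -0.11 and Cyp27a1, a sterol hydroxylase, 0.10 (limma adjusted p = 0.681 and 0.708). The highest Abca1 values were 26.8 RPKM in inhibitor 3 and 22.1 RPKM in control 3 and control 1.

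The isoprenoid branch, which uses mevalonate products for prenylation, dolichol and ubiquinone, had 12 of 12 genes measured, with 0 past the threshold, 9 positive and 3 negative, and a median of 0.07. Pdss1, which builds the ubiquinone side chain, was at 2.51 ± 0.456 and 3.28 ± 0.335 RPKM, and Pggt1b, a subunit of a protein prenylation enzyme, at 10.3 ± 0.831 and 12.0 ± 0.900 RPKM (mean ± SD, n = 4; limma adjusted p = 0.541 each). The Pggt1b groups did not overlap, which held for 1 of 12 genes in this list (8.33%), beside 5.31% of all genes tested. Icmt, which methylates prenylated proteins, had a log2 fold change of -0.11 and Dhdds, of dolichol synthesis, -0.05 (limma adjusted p = 0.617 and 0.757).

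Genes of fatty acid synthesis, which the related factor SREBP1 governs, had 12 of 17 measured, with 0 past the threshold, 8 positive and 4 negative, and a median of 0.05. Fads1, a fatty acid desaturase, was at 18.5 ± 2.33 and 21.1 ± 3.17 RPKM, and Pnpla3, a lipid droplet enzyme, at 2.13 ± 0.188 and 2.46 ± 0.312 RPKM (mean ± SD, n = 4; limma adjusted p = 0.609 and 0.608). Fasn, fatty acid synthase, had a log2 fold change of -0.09 and Elovl5, an elongase, -0.08 (limma adjusted p = 0.705 and 0.717). Of these 12 genes, 7 (58.3%) had r above 0.5 with the mean of the 7 cholesterol genes, against 18.4% of all genes tested. Over the 12 the median r was 0.56, and r ranged from -0.81 to 0.83.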

How the data were processed

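mRNA-seq of 8 libraries was analysed from RPKM values, which per the file headers the authors deposited in a column for each library. The same table holds the authors' fold (a ratio of mean RPKM), log2 fold change, p-values and adjusted p-values, deposited without the name of the test. Build rn6 and the tools HISAT2 2.1.0, HTSeq, STAR 2.5.3a and RSEM 1.3.0 are named in the submitters' processing notes; their roles, the annotation and the use of strand are not given in the sources used here. Each listed gene was expressed in both groups, so genes near 0 were not analysed here.

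log2(RPKM + 1) was fitted with limma 3.58.1 (R 4.3.3) for 10688 genes that reached an RPKM of 1 in 4 or more libraries, with group as the 1 term, an intensity trend, two-sided tests and Benjamini-Hochberg adjustment at 0.05. Whole reads were recovered for 10692 of 10692 rows at a tolerance of 0.0001, and served for depth and for limma-voom. The fit and the recovery were tested on simulated data. Correlations used exact permutation over libraries (scipy 1.17.1). The members and gene lists were chosen with earlier results of these data known. Genes named were the 7 members, any other sterol enzyme, the 2 of smallest p in each direction per other list, and the 6 most alike over libraries. Some genes of these lists are not reported here. Alternatives were another pseudocount, other filters, median-of-ratios scaling, limma-voom, no trend, a replicate block and libraries left out. Promoters came from the RefSeq table of GRCr8, which held 5 of the 7 genes. No deposited column of per-sample values was left unused.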

Additional observations from a re-analysis of the deposited data

Results flagged for a closer look

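Single libraries far from the other 3 of their group were looked for among the 7 genes and the 14 other sterol enzymes, in 42 groups of 4, where chance alone flags about 1 group in 20. There were 5 such values. Idi1 was 19.5 RPKM in inhibitor 3 against 33.0 to 35.8 RPKM in the other inhibitor libraries, and Sc5d was 27.9 RPKM there against 33.7 to 34.4 RPKM. Insig1 was 25.2 RPKM in control 1 against 15.6 to 17.1 RPKM in the other controls, and Dhcr7 was 15.6 RPKM there against 12.6 to 12.9 RPKM. Hsd17b7, a sterol reductase of low level, was 1.60 RPKM in control 3 against 2.48 to 2.55 RPKM. All 5 fell in control 1, control 3 or inhibitor 3, and the genes move together, so these values are not independent of each other.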

How the results depend on the processing

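The 7 log2 fold changes were computed under 16 alternatives each, and none passed the threshold under any (smallest limma adjusted p = 0.256, Insig1 without control 1 and inhibitor 4). Signs were kept with 1 exception, Srebf2, at 0.039 without control 1 and inhibitor 4. With single libraries left out the log2 fold changes ranged from 0.16 to 0.32 for Hmgcs1, 0.06 to 0.23 for Sqle, 0.09 to 0.40 for Idi1, 0.01 to 0.0998 for Fdps, 0.03 to 0.19 for Fdft1, 0.12 to 0.34 for Insig1 and -0.20 to -0.03 for Srebf2. The number of genes at an unadjusted p under 0.05 ranged from 422 (without inhibitor 1) to 1273 (without control 1), was 494 without control 2, and was 1699 without control 1 and inhibitor 4. Under median-of-ratios scaling these genes were 449 higher and 540 lower, against 590 and 370. The number of correlated pairs, 9 to 13 with single libraries left out, was 5 without control 1 and inhibitor 4 and 2 without control 3 and inhibitor 3, alternatives chosen after seeing the data, each with 6 libraries; the cause was not tested. With the replicate number as a block, 0 genes passed and Hmgcs1 had 0.24 ± 0.06 (SE; limma adjusted p = 0.464), and 1109 genes had an unadjusted p under 0.05. Deviations of same-numbered libraries correlated at 0.14, -0.27, 0.32 and 0.45, and those of differently numbered libraries at -0.45 to 0.42. These values do not settle whether the numbers pair libraries, and the labels do not say. The main fit therefore had no block. The 7 genes had at least 917 reads in each library, and error from library preparation cannot be told apart from differences between the cells sampled.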
